A study of Mus musculus with 42 samples.

Results

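Oxidative phosphorylation is encoded by both genomes of the cell. The 98 genes described here are 83 nuclear genes, chosen by gene symbol as subunits of complexes I to V with a mean of at least 10 counts over the 12 RNA-seq libraries, and all 15 genes that the table lists on the mitochondrial chromosome, out of 27179 genes in all. Sorted by symbol, the nuclear genes are 40 of complex I, 3 of complex II, 7 of complex III, 16 of complex IV and 17 of complex V. They lie on 19 chromosomes. The complex I genes include close homologues of subunits and *Ndufs6b*, which the annotation lists as a pseudogene. The mitochondrial genes are 13 protein-coding genes, of which 7 belong to complex I, 1 to complex III, 3 to complex IV and 2 to complex V, and both ribosomal RNA genes. Of 91 nuclear genes that matched by symbol, 8 had a lower mean count and were left out. The lowest members were *Ndufb4c*, with a mean of 15.3 counts, and *Cox7a2*, with 17.6, and the highest gene left out was *Cox6a2*, with 7.17.

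RNA was measured in spermatogonia enriched as Thy1+ or as c-Kit+ cells from testes of C57BL/6J male mice at 10 dpp (days postpartum). The control was *Ddx4-Cre*; *Chd8* +/F and the mutant was *Ddx4-Cre*; *Chd8* F/-, so that both genotypes carried the germline Cre transgene and a floxed allele of *Chd8*, which encodes a chromatin remodeler. Each of the 4 groups had 3 libraries of polyadenylated RNA, and the methods describe cells from 3 pups for each analysis, enriched with c-Kit beads and then with Thy1 beads. Whether the libraries of a group came from separate animals is not stated, so the p-values measure the spread between these libraries only.

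Complexes I to IV pass electrons from NADH and succinate to oxygen and, except complex II, pump protons across the inner mitochondrial membrane, and complex V makes ATP from the gradient. The mitochondrial genome is transcribed from both strands into long precursors that are cut into separate RNAs, whereas each nuclear gene has its own promoter. Complex II is built from nuclear genes only. Spermatogonia develop outside the blood-testis barrier, and several complex IV and accessory subunits have a homologue that is used mainly in the testis, such as *Cox7b2*, *Cox6b2* and *Cox8c*.

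Library totals ran from 32266861 to 45396233 counts. The sorting antigens followed the labels, with *Thy1* higher in Thy1+ than in c-Kit+ cells by 4.22 on the log2 scale in controls and by 4.08 in mutants, and *Kit* lower by 1.19 in both (edgeR adjusted p from 1.67e-05 to 0.00701). *Chd8* itself did not differ at the gene level (log2 fold change 0.03 in Thy1+ and 0.06 in c-Kit+ cells, edgeR adjusted p = 0.896 and 0.491), and a count over the whole gene cannot show a deletion of some exons. The study reported efficient deletion of the CHD8 protein by immunoblot in mutant spermatogonia of adult mice. It also barely detected CHD8 binding peaks in mutant spermatogonia at the age used here. Markers of somatic testis cells were present in all groups. The summed level of 6 stromal genes ran from 10996 to 14323 CPM (counts scaled to a common library total) in Thy1+ controls and from 1794 to 2241 CPM in c-Kit+ controls, against 1701 to 2545 and 2842 to 3402 CPM for 10 germ cell genes.

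The sequences below are shown because parts of the mitochondrial genome recur in nuclear chromosomes, some without any differing base. The first pair is a stretch of 60 bases of *mt-Co2*, chrM:7324-7383, and its copy in the nuclear genome on the minus strand of chr1:24615195-24615254 (GRCm38, read in the direction of the gene), and they have no differing base. The second pair is a stretch of *mt-Cytb*, chrM:14686-14745, and its copy at chr4:80004530-80004589, with the 4 differing bases in capitals.
mt-Co2: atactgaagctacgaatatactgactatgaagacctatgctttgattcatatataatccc
mt-Co2 copy on chromosome 1: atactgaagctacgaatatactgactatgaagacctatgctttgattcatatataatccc
mt-Cytb: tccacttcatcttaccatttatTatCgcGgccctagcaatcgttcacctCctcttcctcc
mt-Cytb copy on chromosome 4: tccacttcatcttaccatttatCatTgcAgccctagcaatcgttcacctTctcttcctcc

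The copy on chromosome 1 spans 4654 bases, chr1:24611535-24616188, and matches chrM:6390-11042 with 2 mismatches and 1 gap (99.9% identity). It holds *mt-Co2*, *mt-Atp8*, *mt-Atp6*, *mt-Co3* and *mt-Nd4l* in full and 99.1% of *mt-Nd3*, in identical runs of at least 100 bases. Counted over all nuclear copies, *mt-Nd4* has 63.6% and *mt-Co1* 48.1% of its bases in such runs, and *mt-Nd1*, *mt-Nd5*, *mt-Nd6*, *mt-Cytb* and *mt-Rnr1* have none. *mt-Co1* also matches a copy on chromosome 2 along its length (chr2:22588103-22589647, 97.6% identity). The counting command names no option for reads that map to more than one place.

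**Figure D1:**
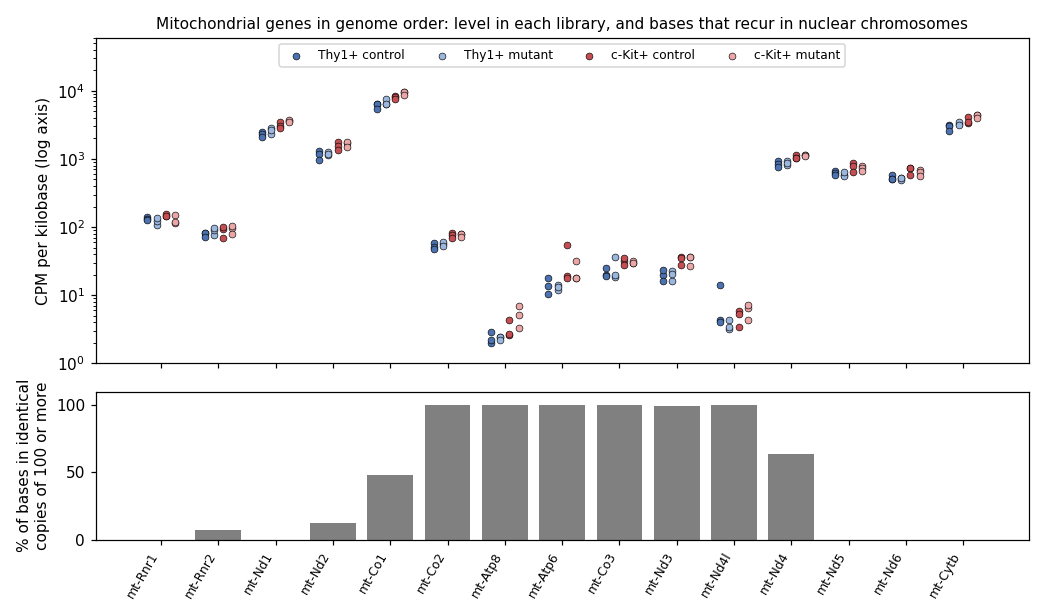
Level of each mitochondrial gene in each of the 12 libraries (upper panel, CPM per kilobase on a log axis, colours for the 4 groups) and the percent of its bases that lie in identical nuclear copies of at least 100 bases (lower panel), in genome order. The 6 genes from *mt-Co2* to *mt-Nd4l* sit below 100 CPM per kilobase in every library.

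Per kilobase of gene length, the 6 genes held in full or to 99.1% by the chromosome 1 copy had mean levels from 3.27 (*mt-Atp8*) to 65.5 (*mt-Co2*) CPM per kilobase, and the 7 other protein-coding genes had mean levels from 588 (*mt-Nd6*) to 7532 (*mt-Co1*). The ranges did not overlap, and the medians differed 59.9-fold. These 7 genes, of which *mt-Nd4* and *mt-Co1* lie partly inside the copy, took 98.5% of all mitochondrial CPM, and the 6 genes took 0.393%. *mt-Co1*, the catalytic core of complex IV, was followed by *mt-Cytb* of complex III at 3535, *mt-Nd1* at 2903, *mt-Nd2* at 1395, *mt-Nd4* at 978 and *mt-Nd5* at 682 CPM per kilobase, all of complex I. *mt-Nd6*, the complex I gene on the opposite strand, was the lowest of these. The remaining levels of the 6 genes were 27.0 for *mt-Co3*, 26.5 for *mt-Nd3*, 20.1 for *mt-Atp6* and 5.53 for *mt-Nd4l*. How much of the low level of these 6 genes comes from reads that could not be placed was not tested. The ribosomal RNAs *mt-Rnr1* and *mt-Rnr2* stood at 134 and 86.9 CPM per kilobase in these poly(A)-selected libraries.

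Nuclear members also share sequence with other places in the genome. In 42 of the 83 nuclear genes a part of the exons recurred in identical runs of at least 50 bases elsewhere in the genome, and in 16 this part was over 50%. Exons of 14 nuclear genes overlapped those of another gene of the table. *Ndufa12*, *Ndufa6* and *Ndufa8* of complex I shared 55.1%, 60.9% and 80.2% of their exon bases with genes of other identifiers. Values of such genes are uncertain. Leaving out every gene with 10% or more of its exon bases in copies or overlaps kept 38 nuclear and 4 mitochondrial genes.

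The nuclear genes with the highest levels per kilobase belonged to complexes IV and V. *Cox4i1*, the common form of subunit 4 of complex IV, had a mean of 527 CPM per kilobase over the 12 libraries, and *Atp5b*, the catalytic beta subunit of the ATP synthase, had 446. The highest of complex I was *Ndufb9* at 203, the highest of complex III was *Uqcrh* at 203, and the highest of complex II was *Sdha* at 119. In c-Kit+ controls the median over the nuclear genes of a complex was 68.8 CPM per kilobase for complex I, 93.3 for complex II, 113 for complex III, 108 for complex IV and 176 for complex V. *mt-Co1* was above every nuclear member in all groups.

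Promoter sequences from RefSeq (GRCm38.p6, from 250 bases before to 50 after the start site) were matched for 66 of the 83 nuclear genes. The palindromic motif of nuclear respiratory factor 1, which is GCGCA followed by its reverse complement, stood in 5 of 66 members (7.58%), in 1.93% of 13519 tested genes and in 1.07% of all 27025 genes with a promoter. AAGATGGCG, the motif of YY1, stood on either strand in 7 members (10.6%), against 2.79% of tested and 1.64% of all genes. CCGGAAG, an ETS motif, stood in 22.7% of members and 16.7% of tested genes, and CCAAT in 45.5% and 42.4%. The 5 stretches with the first motif are shown, with its letters in capitals, for *Atp5g2* (chr15:102671070-102671099, minus strand), *Atp5k* (chr5:108434430-108434459, minus strand), *Cox6a1* (chr5:115349101-115349130, minus strand), *Ndufa11* (chr17:56717692-56717721, plus strand) and *Uqcrc1* (chr9:108936668-108936697, plus strand, where it follows the start site).
Atp5g2: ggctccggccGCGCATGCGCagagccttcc
Atp5k: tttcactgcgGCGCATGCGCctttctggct
Cox6a1: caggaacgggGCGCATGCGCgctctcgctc
Ndufa11: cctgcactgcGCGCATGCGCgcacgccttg
Uqcrc1: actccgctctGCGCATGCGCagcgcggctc

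None of these 5 genes was called in any comparison below, and of the 9 nuclear genes that were, the 7 with a promoter in the table held none of the first 3 motifs. CCAAT stood in *Ndufv3*, *Cox7b*, *Cox7b2* and *Atp5g3*.

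The share of each library that fell on the mitochondrial genes was compared first, since it needs no fit. In Thy1+ controls the 15 genes took 1.99%, 1.97% and 1.67% of all counts, and in Thy1+ mutants 1.88%, 2.26% and 1.95%. In c-Kit+ controls they took 2.75%, 2.53% and 2.42%, and in c-Kit+ mutants 2.88%, 2.92% and 2.63%. Both populations lay apart in each genotype, and the genotypes overlapped in each population. The means were 1.88% ± 0.183 and 2.03% ± 0.201 in Thy1+ controls and mutants and 2.57% ± 0.170 and 2.81% ± 0.160 in c-Kit+ controls and mutants (SD, n = 3). Between populations the exact two-sided permutation p was 0.1 in each genotype, the smallest that 3 against 3 libraries allow, and between genotypes the exact permutation p was 0.6 in Thy1+ and 0.2 in c-Kit+ cells. *mt-Co1* alone made up 48.2% to 51.6% of the mitochondrial counts of a library.

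The nuclear genes together took less of each library, 0.710% ± 0.0249 in Thy1+ controls, 0.715% ± 0.0336 in Thy1+ mutants, 0.839% ± 0.0182 in c-Kit+ controls and 0.841% ± 0.0209 in c-Kit+ mutants (SD, n = 3). Mitochondrial counts per nuclear count were 2.64 ± 0.240, 2.83 ± 0.157, 3.06 ± 0.172 and 3.34 ± 0.269 in the same order. For both quantities the populations did not overlap within a genotype (exact permutation p = 0.1, the smallest possible). On the log2 scale the mitochondrial share was lower in Thy1+ than in c-Kit+ cells by a difference of -0.45 in controls and -0.47 in mutants, and the nuclear share by -0.24 and -0.23, so that the ratio differed by -0.21 and -0.24. Since the cells were measured in bulk, fewer cells with a high level and less RNA per cell cannot be told apart. Markers of other cells moved with the populations too. By the test described below, Leydig markers were called lower in Thy1+ cells for 5 of 6 genes in controls and 6 in mutants, and all 4 tested mast cell markers in both, while 6 of 7 macrophage markers were called higher in both and endothelial markers for 3 and 2 of 6 genes. All 6 stromal and 4 of 5 myoid markers were called higher in both, with stromal sums of 10996 to 14323 CPM in Thy1+ and 1794 to 2241 CPM in c-Kit+ controls. Of 10 germ cell markers, 3 were called higher and 4 lower in controls, and 1 higher and 3 lower in mutants. The summed Leydig level was 233 to 423 CPM in Thy1+ and 626 to 1221 CPM in c-Kit+ controls, and the mast cell sum 2.24 to 4.34 and 12.5 to 33.5 CPM. Their part in the shares was not tested.

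**Figure D2:**
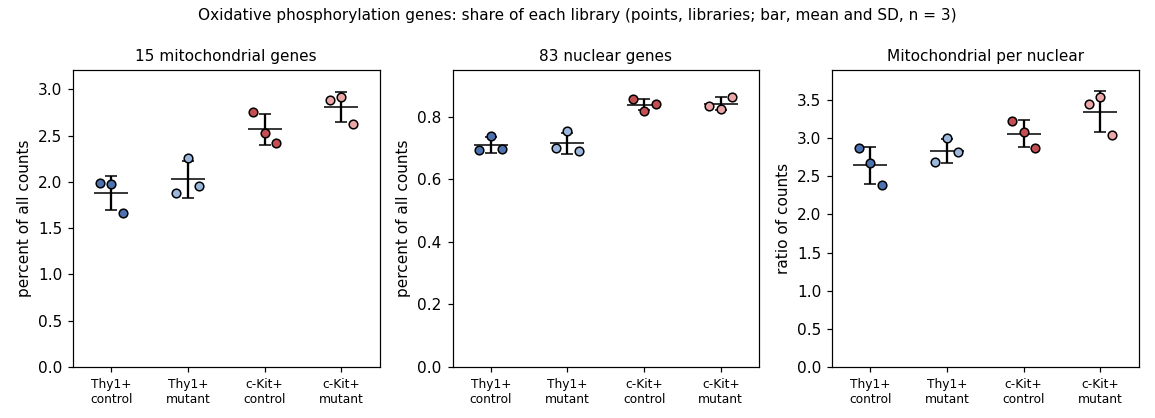
Percent of all counts on the 15 mitochondrial genes (left), on the 83 nuclear genes (middle), and the ratio of both (right) in each of the 12 libraries, with the mean and SD of the 3 libraries of a group. Mitochondrial shares were 1.67% to 2.26% in Thy1+ and 2.42% to 2.92% in c-Kit+ libraries.

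The study takes Thy1+ cells as undifferentiated and c-Kit+ cells as differentiating spermatogonia. Both fractions also held markers of somatic cells, so their comparison does not separate spermatogonial stage from cell composition. Here Thy1+ was compared with c-Kit+ within each genotype by edgeR's quasi-likelihood test, and a gene was called where its adjusted p (FDR) lay under 0.05 and its log2 fold change beyond 0.5 in either direction. In controls, 27.8% of 17350 tested genes were called, 20.7% higher and 7.08% lower in Thy1+ cells. Of the 83 nuclear genes, 4 were called higher and 2 lower, and of the 15 mitochondrial genes none was called higher and 3 lower. In mutants 20.3% of tested genes were called, 15.3% higher and 5.03% lower, and of the members 2 nuclear genes were called higher and none lower, while 2 mitochondrial genes were called lower. Differences of the members were mostly small and of 1 sign. Nuclear genes had a fitted value below 0 in 68 of 83 cases in controls and in 70 in mutants, against 48% and 52.7% of all tested genes, with medians of -0.17 in both genotypes beside 0.03 and -0.03 for all tested genes. Mitochondrial genes had medians of -0.39 and -0.41 and were below 0 in 14 and 15 of 15 cases. All 3 Thy1+ libraries lay below all 3 c-Kit+ libraries for 45 nuclear and 10 mitochondrial genes in controls, against 24.8% of tested genes, and for 49 and 11 in mutants, against 26.7%. The reverse held for 8 and 3 nuclear genes and no mitochondrial gene, against 29.5% and 23.3% of tested genes.

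With no minimum on the fold change, 26 nuclear genes were lower and 6 higher in controls, and 10 lower and 3 higher in mutants, against 13.6% lower and 24% higher, and 8.84% lower and 18.5% higher, of all tested genes. All 5 complexes had negative medians in controls, from -0.15 for complexes III and IV to -0.18 for complexes II and V. Complex V had 16 of its 17 nuclear genes below 0 in each genotype. The comparisons in controls and in mutants used separate libraries. Among the lower genes were *Atp5md*, a small subunit of the ATP synthase (-0.46 ± 0.11 in controls and -0.38 ± 0.09 in mutants, SE, edgeR adjusted p = 0.0122 and 0.0160), and *Cox5a*, a nuclear subunit of complex IV (-0.42 ± 0.09 and -0.34 ± 0.09, edgeR adjusted p = 0.00768 and 0.0223), and neither passed the minimum fold. Without Thy1+ control replicate 2, *Cox5a* was called in controls (-0.52). Scaling by library size alone gave nuclear medians of -0.25 in both genotypes.

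Of the subunits of complex II, which also oxidises succinate in the citric acid cycle, none was called. *Sdha*, the flavoprotein, had 306 CPM ± 7.79 in Thy1+ controls, 313 ± 15.6 in Thy1+ mutants, 352 ± 11.8 in c-Kit+ controls and 389 ± 14.4 in c-Kit+ mutants (SD, n = 3). *Sdhb*, the iron-sulphur subunit, had 74.7 ± 4.73, 73.3 ± 4.24, 93.2 ± 1.14 and 87.0 ± 0.902 CPM in the same order. *Sdhc*, a membrane anchor, had 105 ± 2.22, 111 ± 4.0, 110 ± 5.46 and 110 ± 4.17 CPM. Between populations *Sdhb* was lower in Thy1+ controls (-0.29 ± 0.08, SE, edgeR adjusted p = 0.0242) and *Sdha* in Thy1+ mutants (-0.27 ± 0.08, edgeR adjusted p = 0.0358), both under the minimum fold, and *Sdhc* was within 0.06 of 0 in each genotype.

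Unlike the rest, *Ndufa4l2* and *Cox4i2* differed by more than 10-fold between populations. *Ndufa4l2*, the hypoxia-inducible homologue of *Ndufa4*, had 12.5, 8.73 and 7.05 CPM in Thy1+ controls and 15.3, 9.31 and 11.6 CPM in Thy1+ mutants. In c-Kit+ cells it had 0.291, 0.400 and 0.174 CPM in controls and 0.531, 0.438 and 0.405 CPM in mutants. Every Thy1+ library was above every c-Kit+ library, and the log2 fold change was 5.04 ± 0.37 in controls and 4.75 ± 0.27 in mutants (SE, edgeR adjusted p = 3.0e-05 and 1.9e-05).

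*Cox4i2*, a form of complex IV subunit 4 known from lung and vessel walls, had 9.67, 4.12 and 6.39 CPM in Thy1+ controls, 11.2, 7.30 and 7.81 CPM in Thy1+ mutants, 0.349, 0.572 and 0.290 CPM in c-Kit+ controls and 0.620, 0.511 and 0.984 CPM in c-Kit+ mutants. The populations were again apart, with log2 fold changes of 4.07 ± 0.42 and 3.68 ± 0.30 (SE, edgeR adjusted p = 0.00017 and 7.2e-05). Per kilobase, *Cox4i2* made up 1.90% ± 0.880 of the sum of *Cox4i1* and *Cox4i2* in Thy1+ controls and 0.0993% ± 0.0395 in c-Kit+ controls, and *Ndufa4l2* made up 6.63% ± 2.52 and 0.178% ± 0.0750 of the sum with *Ndufa4* (SD, n = 3). The common forms *Cox4i1* (-0.18 ± 0.09) and *Ndufa4* (-0.24 ± 0.10) were not called in controls (SE, edgeR adjusted p = 0.144 and 0.0849). All 6 stromal markers and 4 of 5 myoid markers were called higher in Thy1+ cells in both genotypes, with a myoid sum of 266 to 482 CPM in Thy1+ controls and 46.1 to 63.9 CPM in c-Kit+ controls, and their part in these results was not tested.

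In controls, *Cox7b* and *Ndufv3* were also called higher and *Ndufa1* and *Atp5pb* lower in Thy1+ cells. *Cox7b*, an accessory subunit of complex IV encoded on the X chromosome, had 41.2, 27.6 and 34.2 CPM in Thy1+ and 20.9, 19.5 and 23.8 CPM in c-Kit+ controls, with no overlap (log2 fold change 0.71 ± 0.17, SE, edgeR adjusted p = 0.0115). *Ndufv3*, an accessory subunit at the NADH-oxidising end of complex I, had 40.2, 28.8 and 33.3 against 28, 21 and 21.7 CPM (0.56 ± 0.17, SE, edgeR adjusted p = 0.0313). *Ndufa1*, an X-linked subunit needed for the membrane arm of complex I, had 20.7, 20.5 and 25.1 against 31.7, 35.9 and 34.2 CPM (-0.59 ± 0.12, SE, edgeR adjusted p = 0.00705). *Atp5pb*, the b subunit of the peripheral stalk of the ATP synthase, had 158, 198 and 187 against 258, 277 and 261 CPM (-0.53 ± 0.10, SE, edgeR adjusted p = 0.0038). In mutants the same 4 genes had values of 0.29, 0.18, -0.16 and -0.32 and were not called, and the difference between both genotypes was not called for any of them in the interaction test described further on. *Cox7a2l*, a homologue of *Cox7a2* that takes part in supercomplexes, was 0.45 ± 0.08 higher in controls and 0.39 ± 0.08 in mutants, under the minimum fold (SE, edgeR adjusted p = 0.00346 and 0.0116).

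These 4 calls rested on single libraries to different degrees. Without c-Kit+ control replicate 2, *Cox7b* (0.65), *Ndufv3* (0.48) and *Atp5pb* (-0.49) were no longer called. *Atp5pb* was also not called without Thy1+ control replicate 1 (-0.46), and *Ndufv3* was not called without Thy1+ control replicate 1 (0.40) or 3 (0.53) or c-Kit+ control replicate 3 (0.48). *Ndufa1*, *Ndufa4l2* and *Cox4i2* stayed called in every such fit in controls. The exons of *Atp5pb* overlapped another gene over 14.1% and lay in identical runs of at least 50 bases elsewhere over 49.0% of their bases.

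Among the 9 mitochondrial genes that the copy does not hold whole, every fitted value was below 0 in both genotypes, from -0.43 to -0.13 in controls and from -0.42 to -0.02 in mutants. *mt-Co1* had 9773, 9806 and 8252 CPM in Thy1+ controls, 9725, 11584 and 10046 CPM in Thy1+ mutants, 12898, 12414 and 11884 CPM in c-Kit+ controls and 14992, 14881 and 13379 CPM in c-Kit+ mutants. The populations did not overlap, and the log2 fold change was -0.39 ± 0.11 in controls and -0.42 ± 0.10 in mutants (SE, edgeR adjusted p = 0.0260 and 0.0152). *mt-Cytb* had 3612, 3473 and 2967 CPM in Thy1+ and 4690, 3911 and 3918 CPM in c-Kit+ controls (-0.29 ± 0.12, SE, edgeR adjusted p = 0.0926), and 3700, 3961 and 3623 against 5118, 5051 and 4506 CPM in mutants (-0.34 ± 0.09, SE, edgeR adjusted p = 0.0220). *mt-Nd1* differed by -0.43 ± 0.11 and -0.42 ± 0.10 (SE, edgeR adjusted p = 0.0185 and 0.0137). None of these 3 genes passed the minimum fold.

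For the remaining genes that the chromosome 1 copy does not hold whole, the values in controls and mutants were -0.41 and -0.42 for *mt-Nd2*, -0.30 and -0.33 for *mt-Nd4*, -0.28 and -0.24 for *mt-Nd5* and -0.36 and -0.26 for *mt-Nd6*. The ribosomal RNAs had -0.14 and -0.02 (*mt-Rnr1*) and -0.13 and -0.06 (*mt-Rnr2*), and neither passed the test in any population comparison. With no minimum fold, 6 of 15 genes were lower in controls and 8 in mutants, against 13.6% and 8.84% of all tested genes. None was higher, against 24% and 18.5% of all tested genes. With the replicate number as a block, 11 of 15 were lower in controls, 7 of them among the 9 genes that the copy does not hold whole, in a fit that placed 18.9% of all genes there.

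All mitochondrial genes that were called are among the 6 held by the chromosome 1 copy. In controls they were *mt-Nd3* (-0.71 ± 0.20), *mt-Co3* (-0.54 ± 0.15) and *mt-Co2* (-0.51 ± 0.12), and in mutants *mt-Atp6* (-0.76 ± 0.24) and *mt-Nd3* (-0.70 ± 0.19; SE, edgeR adjusted p from 0.0133 to 0.0446). *mt-Nd3* had 6.82, 8.19 and 5.66 CPM in Thy1+ and 12.7, 12.0 and 9.59 CPM in c-Kit+ controls. *mt-Co2* had 40.2, 35.1 and 32.2 against 56.6, 52.1 and 47.8 CPM. *mt-Atp6* had 37.2 CPM in c-Kit+ control replicate 1 and 13.0 and 12.3 in replicates 2 and 3, against 12.3, 9.17 and 7.0 CPM in Thy1+ controls, and was not called in controls (-1.11 ± 0.43, SE, edgeR adjusted p = 0.0722) except with the replicate number as a block (-0.96, edgeR adjusted p = 0.0039), a fit that called 8.38% of all genes lower. *mt-Atp8* (-0.42 and -1.07) and *mt-Nd4l* (0.67 and -0.68) were not called in either genotype and had mean counts of 24.3 and 62.7.

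Leaving out libraries moved these calls. The number of mitochondrial genes called lower ranged from 0 to 6 in controls and from 0 to 3 in mutants when 1 library was left out. In controls, *mt-Nd3*, *mt-Co2* and *mt-Co3* were not called without Thy1+ control replicate 3 (-0.63, -0.49 and -0.52) or c-Kit+ control replicate 1 (-0.65, -0.48 and -0.55), and without c-Kit+ control replicate 2 *mt-Nd3* (-0.67) and *mt-Co3* (-0.46) were not called. In mutants, *mt-Atp6* and *mt-Nd3* were not called without Thy1+ mutant replicate 1 (-0.67 and -0.55), Thy1+ mutant replicate 3 (-0.76 and -0.72) or c-Kit+ mutant replicate 2 (-0.42 and -0.63), *mt-Nd3* was not called without c-Kit+ mutant replicate 1 (-0.64), and *mt-Atp6* was not called without c-Kit+ mutant replicate 3 (-0.92).

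**Figure D3:**
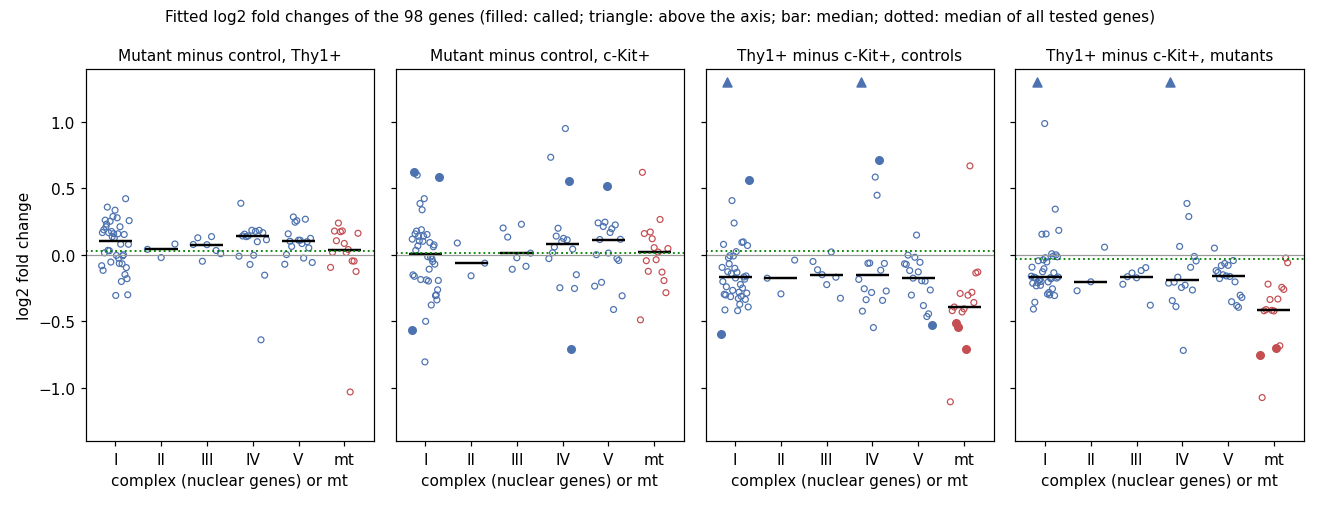
Fitted log2 fold changes of the 83 nuclear genes by complex (blue) and the 15 mitochondrial genes (red) in 4 comparisons, with filled points for called genes, black bars for medians and a dotted line for the median of all tested genes. In both population comparisons the mitochondrial median (-0.39 and -0.41) lies below the nuclear ones, and in c-Kit+ mutants called genes lie on both sides of 0. Triangles mark *Ndufa4l2* and *Cox4i2*, which lie above the axis.

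The genotype comparison asks what loss of CHD8 changes in each population. In c-Kit+ cells 22.2% of 17134 tested genes were called, 14.8% higher and 7.41% lower in mutants. Of the 83 nuclear genes, 4 were called higher (*Ndufa12*, *Ndufv3*, *Cox7b* and *Atp5g3*) and 2 lower (*Cox7b2* and *Ndufa1*), which is 7.23% of them. No mitochondrial gene was called in either direction, with 2 of 15 under an unadjusted p of 0.05 in edgeR and none called by DESeq2. Median log2 fold changes were 0.04 for nuclear and 0.02 for mitochondrial genes beside 0.01 for all tested genes, and nuclear values were above 0 for 47 genes and below for 36.

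*Cox7b2* and *Cox7b* moved in opposite directions. *Cox7b2*, the autosomal homologue found mainly in testis, had 12.7, 13.6 and 13.6 CPM in c-Kit+ controls and 8.24, 9.76 and 7.41 CPM in mutants, with no overlap (-0.71 ± 0.13, SE, edgeR adjusted p = 0.0025). *Cox7b* had 20.9, 19.5 and 23.8 CPM in controls and 30.9, 31.5 and 35.7 CPM in mutants (0.55 ± 0.11, SE, edgeR adjusted p = 0.0027). Per kilobase, *Cox7b2* made up 53.5% ± 2.58 of the sum of both in c-Kit+ controls and 32.3% ± 4.36 in c-Kit+ mutants, and 39.5% ± 7.39 in Thy1+ controls and 27.0% ± 4.42 in Thy1+ mutants (SD, n = 3). Within each population the 3 mutant values lay below the 3 control values.

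*Ndufa1* had 31.7, 35.9 and 34.2 CPM in c-Kit+ controls and 24.3, 21.8 and 25.6 CPM in mutants (-0.56 ± 0.10, SE, edgeR adjusted p = 0.0014). *Atp5g3*, one of the genes for the rotating c ring of the ATP synthase, had 118, 116 and 122 CPM in controls and 188, 165 and 178 CPM in mutants (0.52 ± 0.07, SE, edgeR adjusted p = 0.0004). *Ndufv3* had 28, 21 and 21.7 against 36.1, 31.9 and 42.2 CPM (0.58 ± 0.14, SE, edgeR adjusted p = 0.0071), and *Ndufa12*, an accessory subunit of complex I, had 4.72, 3.15 and 5.14 against 6.73, 6.99 and 7.18 CPM (0.63 ± 0.19, SE, edgeR adjusted p = 0.0273). Control and mutant libraries did not overlap for any of these 4 genes, a pattern that 31.6% of tested genes showed in the higher and 20.6% in the lower direction.

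The 4 higher calls depended on single libraries, and the 2 lower ones did not. Without c-Kit+ control replicate 2 none of *Atp5g3* (0.49), *Cox7b* (0.48), *Ndufv3* (0.50) and *Ndufa12* (0.44) was called. *Atp5g3* was also lost without c-Kit+ mutant replicate 1 (0.47), *Cox7b* (0.48) and *Ndufv3* (0.47) without c-Kit+ mutant replicate 3, and *Ndufa12* without c-Kit+ mutant replicate 1 (0.65), 2 (0.62) or 3 (0.60). Exons of *Ndufa12* lay in identical runs of at least 50 bases elsewhere over 76.3% of their bases.

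**Figure D4:**
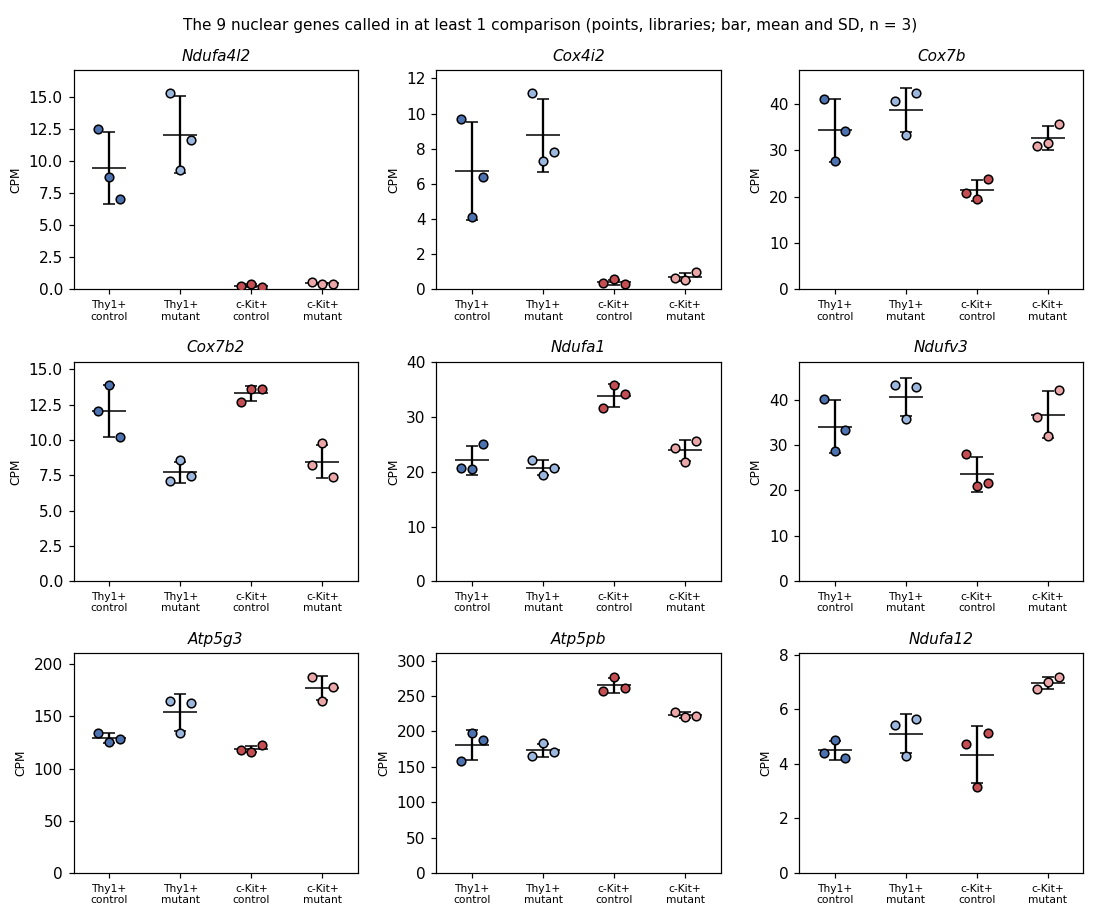
CPM of the 9 nuclear genes called in at least 1 comparison, in each of the 12 libraries, with the mean and SD of the 3 libraries of a group. *Ndufa4l2* and *Cox4i2* are below 1 CPM in all c-Kit+ libraries, and *Cox7b2* lies lower in mutants than in controls of either population.

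With no minimum on the fold change, 14 nuclear genes were higher and 11 lower in c-Kit+ mutants, against 20.8% and 18.3% of all tested genes. The lower genes included subunits of the electron-transferring arm of complex I, namely *Ndufs1* (-0.38), *Ndufs8* (-0.34), *Ndufs7* (-0.30) and *Ndufv1* (-0.26), which bind iron-sulphur clusters or, for *Ndufv1*, the flavin that accepts electrons from NADH. *Atp5pb* was lower by a value of -0.31 ± 0.06 (SE, edgeR adjusted p = 0.002). The higher genes included both other genes for the c ring, *Atp5g1* (0.21 ± 0.07) and *Atp5g2* (0.25 ± 0.07; SE, edgeR adjusted p = 0.0438 and 0.016). These complex I and c ring genes were grouped after their values were seen. Of the mitochondrial genes, *mt-Co1* was higher (0.16 ± 0.05, SE, edgeR adjusted p = 0.0405) and *mt-Rnr1* lower (-0.28 ± 0.09, SE, edgeR adjusted p = 0.0351). The other mitochondrial genes ranged from -0.49 for *mt-Atp6* to 0.62 for *mt-Atp8*, both held by the chromosome 1 copy, and from -0.19 for *mt-Nd6* to 0.17 for *mt-Cytb* among those it does not hold whole. With the replicate number as a block, *mt-Cytb* also passed the test as higher (0.17) and *mt-Nd6* (-0.19) and *mt-Nd5* (-0.12) as lower (edgeR adjusted p = 0.0131, 0.0141 and 0.0428), which made 2 higher and 3 lower, beside 23.2% and 20.2% of all genes.

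For the paired isoforms of complex IV in c-Kit+ cells, the difference between partners was not tested. *Cox6b1* was higher in mutants (0.20 ± 0.07) and *Cox8a* lower (-0.25 ± 0.08; SE, edgeR adjusted p = 0.0357 for both), both under the minimum fold, while their testis homologues *Cox6b2* (-0.25 ± 0.13) and *Cox8c* (-0.15 ± 0.24) did not pass the test. *Cox6a1* (0.14), *Cox4i1* (-0.03), *Cox7a1* (0.12), *Cox7a2* (0.95) and *Cox7a2l* (0.11) did not pass it either, and *Cox7a2* had a mean count of only 17.6. *Cox4i2* (0.73 ± 0.45) and *Ndufa4l2* (0.60 ± 0.47) did not pass the test at this depth (SE, edgeR adjusted p = 0.23 and 0.346), and *Ndufa4* differed by 0.18 (edgeR adjusted p = 0.0486). Between populations *Cox7a1*, the form used in heart and skeletal muscle, had values of -0.55 and -0.72 and was not called in controls or mutants, and *Cox6a1* was lower in Thy1+ cells of both genotypes (-0.34 and -0.39, edgeR adjusted p = 0.0243 and 0.0247), under the minimum fold. *Cox6b1* (-0.06 and -0.17), *Cox6b2* (-0.06 and 0.06), *Cox7a2* (0.58 and -0.23), *Cox7b2* (-0.12 and -0.09), *Cox8a* (-0.06 and -0.01), *Cox8c* (-0.27 and -0.05), *Atp5g1* (-0.18 and -0.15), *Atp5g2* (-0.02 and -0.07) and *Atp5g3* (0.15 and -0.16) were not called between populations.

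*Cox7b*, *Ndufv3* and *Ndufa1* were also called between populations in controls, a comparison that shares the c-Kit+ control libraries. Cell type markers moved with the genotype comparison in c-Kit+ cells. In c-Kit+ mutants 7 of 8 Sertoli, 6 of 6 stromal, 6 of 6 endothelial and 4 of 6 Leydig markers were called higher and 4 of 10 germ cell markers lower. The summed germ cell markers were 2842 to 3402 CPM in controls and 2024 to 2340 CPM in mutants, and the summed stromal markers were 3250 to 4320 CPM in mutants. Their part in the genotype differences was not tested.

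Without the replicate number as a block, none of 17416 genes was called in Thy1+ cells (0%), and so no member was, whether higher or lower. The study, with edgeR's exact test at the same thresholds, reported genes changed in both directions in Thy1+ mutants, most of them down-regulated. Of the members, 8 nuclear and no mitochondrial genes had an unadjusted p under 0.05 in edgeR's quasi-likelihood test, against 12.4% of all tested genes, and DESeq2 and the exact test called none. *Cox7b2* had 12.1, 13.9 and 10.2 CPM in controls and 7.09, 8.56 and 7.45 CPM in mutants, with no overlap (-0.64 ± 0.18, SE, edgeR adjusted p = 0.3). Also named by rank of p in each direction were *Ndufv1* (-0.30 ± 0.09) and *Ndufs1* (-0.20 ± 0.11) on the lower side and *Atp5l* (0.27 ± 0.10), *Atp5g1* (0.28 ± 0.11) and *Ndufb6* (0.28 ± 0.11) on the higher side (SE, edgeR adjusted p from 0.317 to 0.455). Nuclear values were above 0 in 59 of 83 genes with a median of 0.10, against 0.02 for all tested genes, and the 38 nuclear genes without shared sequence had a median of 0.02. Control and mutant libraries did not overlap for 18 nuclear genes with higher and 5 with lower mutant values, against 6.49% and 10.7% of all tested genes. Mitochondrial values had a median of 0.04.

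With the replicate number as a block, since same-numbered libraries deviated together in this comparison, 8.12% of all genes were called, 3.2% higher and 4.92% lower, and *Cox7b2* was the only member called, lower in mutants (-0.64, edgeR adjusted p = 0.0017). Without the minimum fold that fit gave 15 nuclear genes higher and 5 lower, against 15.6% and 13.6% of all genes, and 2 mitochondrial genes higher, *mt-Co1* (0.18) and *mt-Cytb* (0.18). The libraries of both genotypes overlapped for *mt-Co1*. In the same fit 6 of 10 germ cell markers were called lower and 6 of 8 Sertoli markers higher, with sums of 1701 to 2545 and 1225 to 1975 CPM for germ cell and 467 to 1311 and 722 to 1632 CPM for Sertoli markers in controls and mutants. Their part in the genotype differences of Thy1+ cells was not tested. The remaining mitochondrial genes in the fit without the block were *mt-Nd1* (0.18), *mt-Rnr2* (0.16), *mt-Co2* (0.11), *mt-Nd2* (0.09), *mt-Nd4* (0.04), *mt-Nd3* (0.02), *mt-Atp8* (0.02) and *mt-Co3* (0.24) above 0 and *mt-Nd5* (-0.05), *mt-Nd6* (-0.05), *mt-Atp6* (-0.09), *mt-Rnr1* (-0.13) and *mt-Nd4l* (-1.03) below.

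Whether the genotype effect differed between populations was tested for the 98 members with all 12 libraries in the fit. None passed an FDR of 0.05 in edgeR, as for all 18002 genes tested (0%), and none did in DESeq2. An unadjusted p under 0.05 was seen for 4 members in edgeR, against 10% of all genes, and for 6 in DESeq2. The 4 were *Ndufa1* (-0.42 ± 0.16), *Atp5k* (-0.32 ± 0.14), *Atp5g3* (0.32 ± 0.12) and *Ndufb4* (0.36 ± 0.15; SE, edgeR adjusted p from 0.443 to 0.481), where a positive value is a larger increase in c-Kit+ cells. For *Cox7b2* the difference of effects was -0.0039 ± 0.21 on the log2 scale (SE).

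Genes that serve oxidative phosphorylation without being subunits were counted from lists. Of all tested genes, 22.2% were called between genotypes in c-Kit+ cells. Between populations 27.8% were called in controls and 20.3% in mutants. With the replicate number as a block, 23.3% were called between genotypes in c-Kit+ cells and 8.12% in Thy1+ cells. Of the assembly factors (15 tested for complex I, 4 for II, 6 for III, 20 for IV and 4 for V), 1 was called in c-Kit+ mutants, *Ecsit* of complex I assembly (-0.66 ± 0.08, SE, edgeR adjusted p = 0.0003), and with the replicate number as a block *Lyrm7* of complex III assembly was called lower as well (-0.93, edgeR adjusted p = 0.0112). Between populations *Ecsit* (-0.67), *Ndufaf8* (-0.72) and *Uqcc2* (-0.58) were called lower and *Surf1* higher (0.59) in controls, and *Uqcc2* was called lower (-0.55) and *Coa6* (0.61) and *Cox16* (0.60) higher in mutants. *Cycs*, the somatic cytochrome c that carries electrons to complex IV, was called higher in c-Kit+ mutants (0.52, edgeR adjusted p = 0.00389). *Cyct*, its testis form, was called lower in Thy1+ mutants only with the replicate number as a block (-0.50, edgeR adjusted p = 0.0222).

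Of 30 genes for the upkeep and expression of mitochondrial DNA, *Mterf4*, which acts in mitochondrial ribosome assembly, was called higher in Thy1+ than in c-Kit+ cells in controls (1.67) and mutants (1.45), and no other was called without the block. Of all tested genes, 20.7% and 15.3% were called higher in Thy1+ cells in controls and mutants. With the replicate number as a block, *Tefm*, the elongation factor of mitochondrial transcription, was called lower in Thy1+ mutants (-0.53, edgeR adjusted p = 0.00688). *Tfam*, which packages mitochondrial DNA, had values of 0.08 and 0.10 in the genotype comparisons of Thy1+ and c-Kit+ cells. Of 77 tested proteins of the mitochondrial ribosome, none was called between genotypes, against 0% of all tested genes in Thy1+ and 22.2% in c-Kit+ cells. Between populations 3 were called lower in Thy1+ cells in each genotype, against 7.08% and 5.03% of all tested genes. Among them were *Mrpl46* (-0.70 and -0.59) and *Mrpl54* (-0.52 in both). The medians of the 77 proteins were -0.20 in both genotypes, beside -0.17 for the nuclear subunits.

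Of 9 nuclear regulators of these genes, *Ppargc1a*, a coactivator of mitochondrial biogenesis, was called higher in c-Kit+ mutants (1.14 ± 0.30, SE, edgeR adjusted p = 0.0134), and its homologue *Ppargc1b* was called higher in Thy1+ cells in controls (1.2) and mutants (1.05). Of all tested genes, 14.8% were called higher and 7.41% lower in c-Kit+ mutants. Between populations 20.7% and 15.3% were called higher in Thy1+ cells in controls and mutants. *Nrf1* (-0.07 and -0.14), *Gabpa* (0.14 and 0.06) and *Yy1* (0.13 and -0.09) did not pass the test in the genotype comparisons of Thy1+ and c-Kit+ cells. Of 19 citric acid cycle genes, *Idh2* (0.97) and *Suclg1* (0.58) were called higher in c-Kit+ mutants and *Pdha2*, the testis form of a pyruvate dehydrogenase subunit, lower (-1.28, edgeR adjusted p = 0.000446). In Thy1+ mutants *Pdha2* was called lower only with the replicate number as a block (-1.25, edgeR adjusted p = 6.6e-05, against -1.26 and 0.222 without it). In Thy1+ against c-Kit+ controls *Pdha1*, the X-linked form of that subunit, was called higher (1.24), as were *Idh2* (1.05) and *Dlst* (0.52), and in mutants *Pdha1* (1.06) and *Idh2* (0.53) were.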

How the data were processed

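Poly(A)-selected RNA was sequenced with a directional kit in 12 libraries, and per the labels and methods the authors trimmed reads with Trimmomatic 0.39, aligned them to mm10 with HISAT2 2.1.0 and counted them over RefSeq exons with featureCounts. The deposited values are counts per gene, and the file header names no option for strand, for reads with several alignments or for overlapping genes. Chromatin libraries of the study were not used here. Library totals ran from 32266861 to 45396233 counts.

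Groups were taken from the labels. Counts were tested with edgeR 4.0.16 (filterByExpr, TMM normalization, quasi-likelihood test, limma 3.58.1, R 4.3.3) over all genes of both groups compared, with Benjamini-Hochberg adjustment over all tested genes, and over all 12 libraries for the interaction. Called genes had an adjusted p under 0.05 and a log2 fold change beyond 0.5 in either direction. The edgeR steps were tested on simulated data. Shares were compared with exact permutation tests. DESeq2 1.42.0, other scalings and filters and leaving out each library were alternatives. CPM divided counts by the library total of the filtered genes after TMM scaling over the 12 libraries. CPM per kilobase also used the length in the file. Copies were found with blastn 2.17.0 on GRCm38. Names of the mitochondrial genes came from a GENCODE annotation by identical coordinates (15 of 15).

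The members, lists and tests were chosen with earlier results of these data known. Named were all mitochondrial genes, complex II subunits and isoform pairs, the called nuclear genes, and up to 3 genes per direction by rank in each comparison, and from the other lists up to 3 called genes per direction. *Chd8*, *Kit* and *Thy1* served as label checks.

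The replicate numbers come from the labels. Deviations of libraries with the same number correlated at 0.266 to 0.49 for the genotypes in Thy1+ cells. The range was 0.101 to 0.125 for the genotypes in c-Kit+ cells and 0.134 to 0.298 for the populations in controls. In the main fits, whose calls, errors and adjusted p-values are printed unless a block is named, the replicate number was left out. For these comparisons the blocked value is given where it changed a call.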

Additional observations from a re-analysis of the deposited data

How the results depend on the processing

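No value turned its direction for a called gene. In Thy1+ cells between genotypes, the replicate block gave 1 nuclear gene called lower, and the nuclear median was 0.065 with library size only and 0.017 in the genes without shared sequence, a choice made after seeing the data. In c-Kit+ cells between genotypes, dropping the minimum fold gave 14 nuclear genes higher and 11 lower and 1 mitochondrial gene in each direction. Of all tested genes, 20.8% were higher and 18.3% lower without the minimum fold. The nuclear genes without shared sequence gave 2 higher and 1 lower with a median of -0.037, while a fit of all 12 libraries gave a nuclear median of 0.10. Between populations in controls, the nuclear genes called lower numbered 4 with DESeq2 size factors, 7 with library size only, 5 with library sizes without mitochondrial counts, 4 with a filter of 1 CPM in 3 libraries, 4 with DESeq2, 26 without the minimum fold and 0 without shared sequence. The nuclear median there was -0.21, -0.25, -0.23, -0.21 and -0.21 in the first 5 of these. Mitochondrial genes called lower in controls numbered 5 with library size only, 6 without the minimum fold and 0 without shared sequence. Between populations in mutants, 1 nuclear gene was called lower by the exact test, by DESeq2 and in a fit of all 12 libraries, and 10 without the minimum fold. The nuclear median was -0.25 with library size only and -0.21 with all 12 libraries. Mitochondrial genes called lower in mutants numbered 5, 8 and 0 with library size only, without the minimum fold and without shared sequence, the last with a median of -0.30. Without the minimum fold, 13.6% of all tested genes were lower in controls and 8.84% in mutants. Shares of all genes under the other scalings and filters, or with 1 library left out, are not given. Those counts therefore describe only how calls of the members moved. Taken per nuclear count, the mitochondrial share differed between populations by -0.21 in controls and -0.24 in mutants. The cause of these shifts was not tested, apart from those that follow from fewer genes or no minimum fold. With library size only, *Ndufv3* was not called in controls (0.47) and *Cox5a* was (-0.51), and with all 12 libraries *mt-Co3* in controls (-0.56) and *mt-Atp6* in mutants (-0.80) were not called.

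When 1 library was left out, the nuclear genes called ranged from 0 to 4 higher between genotypes in c-Kit+ cells, from 2 to 4 higher and 1 to 6 lower between populations in controls and from 0 to 1 lower in mutants, and the mitochondrial genes called lower ranged from 0 to 6 in controls and 0 to 3 in mutants. Nuclear medians ranged from 0.042 to 0.12 and from -0.00097 to 0.064 between genotypes in Thy1+ and c-Kit+ cells, and from -0.24 to -0.15 and -0.19 to -0.13 between populations in controls and mutants. The mitochondrial median between genotypes ranged from -0.040 to 0.18 in Thy1+ and from -0.10 to 0.10 in c-Kit+ cells. No member passed the interaction test in any setting.

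With the replicate number as a block, 4 mitochondrial genes were called lower between populations in controls, *mt-Atp6* being added, and it added the calls of *Cox7b2*, *Pdha2*, *Cyct* and *Tefm* between genotypes in Thy1+ cells and of *Lyrm7* in c-Kit+ cells, and in these comparisons it changed no other call of a member or of a gene on the lists other than cell type markers. Between populations in mutants the same-numbered libraries correlated at 0.0211 to 0.204, and libraries of differing number at -0.156 to 0.086. Whether same-numbered libraries share animals is not stated. The blocked fit of that comparison called 2 nuclear genes higher, 0 lower and 2 mitochondrial genes lower. Genes with few counts, such as *mt-Atp8* (mean 24.3) and *Cox7a2* (17.6), had errors too large to show differences of the size seen in the other members.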

Other observations

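Of the 8 nuclear genes left out for a low mean count, *Cox6a2*, the muscle form of a complex IV subunit, had a mean of 7.17 counts, *Ndufs5-ps* 7.08, *Cox8b* 3.33, *Ndufa11b* 1.58, *Uqcrh-ps1* 0.667 and *Atp5c1-ps* 0. *Sdhd*, a membrane anchor of complex II, had a mean of 5.0 counts and *Uqcr11* of complex III 0.833, and 90.8% and 95.4% of their exon bases overlapped genes listed under other identifiers.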
